A study of Mus musculus with 12 samples.

Results

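The response of BV2 cells to lipopolysaccharide (LPS) and interferon-γ (IFN-γ) was examined on 6 of the 12 arrays of the series. BV2 is a mouse microglial line immortalised with raf and myc oncogenes, and microglia are the resident macrophages of the brain. All 5 activated arrays came from BV2 cells given 10 ng/ml IFN-γ together with 1 µg/ml LPS and harvested after 4 h. One of them, the activated control, had no compound, and the other 4 each had 1 compound, known here as E14, E18, E21 or E23. The non-activated control had neither stimuli nor compound and was cultured for 4 h. The sources used here give neither the identities and doses of the compounds nor the vehicle. Each condition had 1 array, and the labels do not say which conditions shared a culture.

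The 5 activated arrays were set together because their compounds changed few transcripts. On the values used here, 59 probes differed at least 2-fold between E14 and the activated control, 31 for E18, 32 for E21 and 36 for E23. The nearest compounds outside the group were E4 with 84 probes and E20 with 85, and the farthest was E29 with 1463. The spread among the 5 arrays was therefore small by choice and is no measure of the spread between replicates. With 1 array against 5, an exact permutation test with its tail p doubled could not give a p below 0.333. All differences are given as values. Every one of them rests on the same single non-activated array, and its own spread was not measured.

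LPS is sensed by TLR4 together with CD14 and MD-2, and the adaptors MyD88 and TRIF lead to NF-κB, MAP kinases and interferon regulatory factors. IFN-γ acts through its own receptor and JAK kinases on GAS elements in promoters. Type I interferon made after TLR4 engagement acts through its own receptor, STAT2 and IRF9 on interferon-stimulated response elements (ISREs). In microglia the 2 stimuli are used together to bring about an inflammatory state with cytokines, chemokines, nitric oxide synthase and antigen presentation.

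Levels are the authors' processed intensities on a linear scale, with values under 50 raised to 50 before log2. A probe was called where each of the 5 activated arrays differed at least 2-fold from the non-activated control in the same direction. Of 25697 probes, 10602 exceeded 50 on at least 1 of the 6 arrays. Of these, 665 (6.27%) were called higher and 427 (4.03%) lower in activated cells. With 1 probe per gene, 448 of 7329 genes (6.11%) were higher and 356 (4.86%) lower, and these shares are the background for every count below. The median difference over the 7329 genes was -0.10 on the log2 scale. In a whole culture, a lower level in every cell and a loss in some cells cannot be told apart.

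Rises were larger than falls. At least 8-fold differences in all 5 arrays were found for 85 genes that were higher and 12 that were lower. At 16-fold these numbers were 42 and 1, and at 64-fold they were 8 and 0. Of the 665 probes called higher, 155 were undetected in non-activated cells at a detection p-value limit of 0.01, so that their folds are lower bounds. Of the 427 called lower, 80 were undetected on all 5 activated arrays. Among genes with several probes above the floor and at least 1 called higher, every such probe was called for 98 of 174. For lower genes this held for 31 of 82, and no gene had probes called in both directions.

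**Figure D1:**
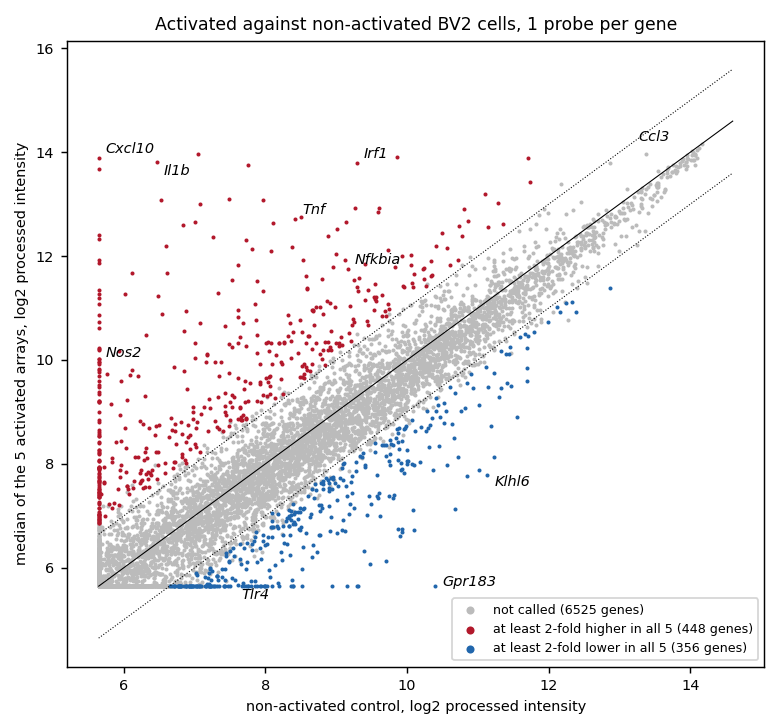
Log2 processed intensity of 7329 genes, with the median of the 5 activated arrays on the vertical axis and the non-activated control on the horizontal axis. Points are genes, dotted lines mark 2-fold, and values under 50 lie on the axis floor. The 448 genes called higher reach much farther from the diagonal than the 356 called lower.

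The largest rise was that of Cxcl10, a chemokine that attracts T cells. Its processed intensity was 15797, 14461, 14704, 15110 and 15955 in the activated control and in E14, E18, E21 and E23, against 28.9, undetected, in non-activated cells. The median difference of 8.24 on the log2 scale corresponds to at least 302-fold. Cxcl9, a related chemokine named for its induction by IFN-γ, had 15509, 13136, 13134, 13178 and 14204 in the same order of activated arrays, against 10.0, undetected, in non-activated cells (at least 264-fold). Both chemokines were at the top of the intensity scale on all 5 activated arrays.

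Il1b encodes the inflammatory cytokine interleukin-1β. It had 14729, 10859, 14447, 15029 and 14064 in the 5 activated arrays, against 88.4 in non-activated cells, a 163-fold difference, with E14 below the others. Il1a, its sister cytokine, had 11913, 7148, 8714, 8948 and 8500 in the 5 activated arrays, against 92.3 in non-activated cells (94.5-fold). Here the activated control was the highest and E14 the lowest. Ccl12, a ligand of the chemokine receptor CCR2 in mice, had 5432, 4058, 4143, 5295 and 5122 in activated cells, against 13.2, undetected, in non-activated cells (at least 102-fold).

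Guanylate binding proteins are large GTPases that attack vacuoles of intracellular pathogens. Gbp2 had 16471, 15776, 15652, 16307 and 16012 in the 5 activated arrays, against 133 in non-activated cells, a 121-fold difference. Gbp3 was 54.2-fold higher in activated cells, at 5838 to 6737 against 114 in non-activated cells. Gbp5 had 3442, 2587, 3315, 2598 and 2594 in the 5 activated arrays, against 10.0, undetected, in non-activated cells, at least 52.0-fold. The 5 values of Gbp2, near the top of the intensity scale, lay within 0.07 on the log2 scale of each other, the smallest span of these 3 genes. Ifi47, a GTPase of the immunity-related family, had 5384, 5397, 5505, 5420 and 4898 in the 5 activated arrays, against 24.2, undetected, in non-activated cells (at least 108-fold).

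Isg15 encodes a ubiquitin-like protein that is attached to other proteins in the antiviral response. It had 7960, 8160, 7528, 8912 and 8248 in the 5 activated arrays, against 135 in non-activated cells, 60.5-fold. Cmpk2, a mitochondrial nucleotide kinase, had 5590, 6467, 6647, 6727 and 6405 in activated cells, against 129 in non-activated cells, 50.2-fold. Cd40, the receptor for the T cell ligand CD154, had 15359, 12866, 15318, 13748 and 12913 in activated cells, against 216 in non-activated cells, 63.7-fold. These genes were picked for their distance from the non-activated control, so the gap between activated and non-activated values was set by choice.

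Batf2, a basic leucine zipper factor of activated macrophages, had 4855, 3735, 3693, 3999 and 3479 in the 5 activated arrays, against 10.0, undetected, in non-activated cells (at least 74.7-fold). Edn1, the precursor of the vasoconstrictor endothelin-1, had 4118, 3101, 3453, 3892 and 3943 in activated cells, against 36.3, undetected, in non-activated cells (at least 77.8-fold). AA467197, a gene known by its transcript name in the annotation, had 2540, 1735, 2473, 2609 and 2077 in activated cells, against 10.0, undetected, in non-activated cells (at least 49.5-fold). These 3 complete the 15 largest rises.

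**Figure D2:**
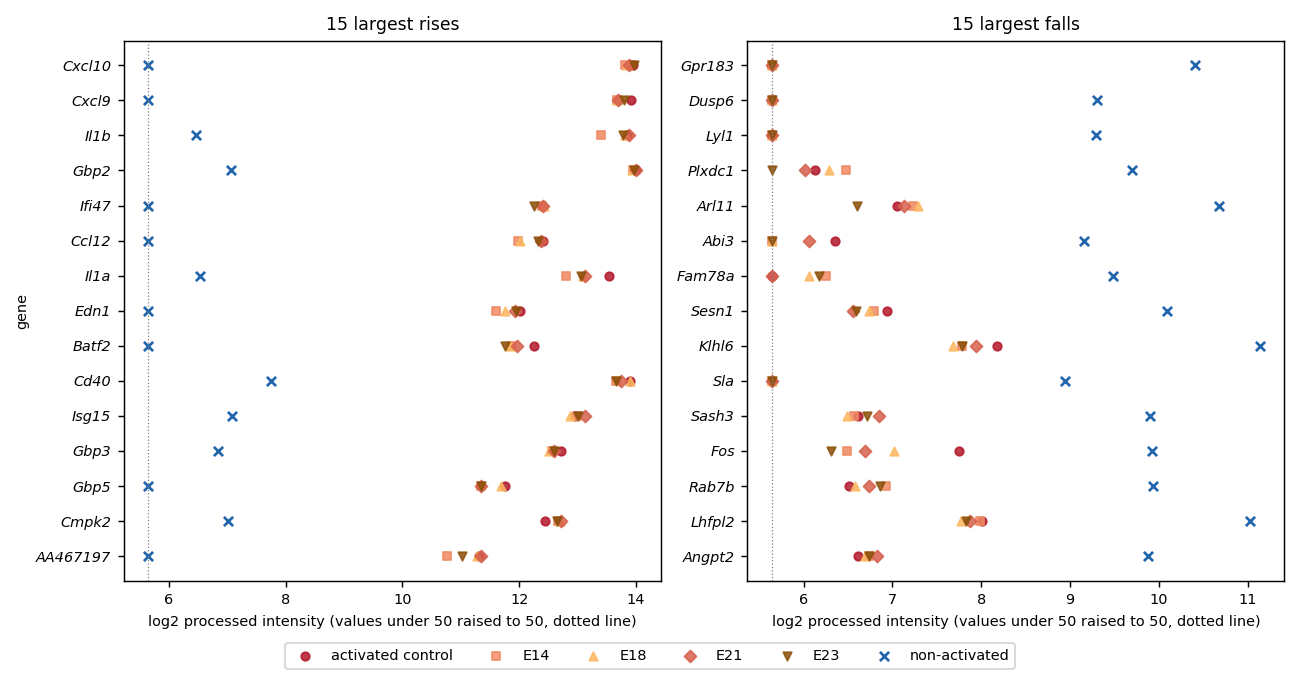
Log2 processed intensity of the 15 genes with the largest rises (left panel) and the 15 with the largest falls (right panel), 1 symbol per array. The genes were picked for their difference from the non-activated control, drawn as a blue cross, so its distance was set by choice. For the rises the log2 difference is at least 5.12 on each activated array (lowest for AA467197 in E14). The 5 activated arrays were chosen to be alike, and their widest span here is 2.71-fold, for Fos.

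The promoters of 6 genes called higher are shown as examples of windows that hold the searched motifs, and they were chosen for holding them. Each is the 250 bases before a RefSeq start on GRCm38.p6, 5′ to 3′ on the gene's strand. Capitals mark matches on either strand to 3 motifs, and no other letters were searched. The motifs were the ISRE core, GAAA and GAAA with any 2 bases between, the κB motif, GGGA and CC with any 4 bases between, and the GAS motif, TTC and GAA with any 3 bases between. Irf1 has 2 such windows and the first is shown.
Cxcl10, chr5:92348890-92349139, minus strand: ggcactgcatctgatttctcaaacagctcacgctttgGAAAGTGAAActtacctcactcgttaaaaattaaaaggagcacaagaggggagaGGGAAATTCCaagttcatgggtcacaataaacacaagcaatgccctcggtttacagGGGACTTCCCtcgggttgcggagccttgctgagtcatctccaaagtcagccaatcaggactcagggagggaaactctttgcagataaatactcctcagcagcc
Gbp2, chr3:142620413-142620662, plus strand: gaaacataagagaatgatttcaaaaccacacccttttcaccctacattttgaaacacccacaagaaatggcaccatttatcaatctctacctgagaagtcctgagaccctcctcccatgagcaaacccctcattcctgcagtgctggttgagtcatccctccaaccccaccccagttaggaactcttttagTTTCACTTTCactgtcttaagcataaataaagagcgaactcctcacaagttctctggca
Gbp5, chr3:142496684-142496933, plus strand: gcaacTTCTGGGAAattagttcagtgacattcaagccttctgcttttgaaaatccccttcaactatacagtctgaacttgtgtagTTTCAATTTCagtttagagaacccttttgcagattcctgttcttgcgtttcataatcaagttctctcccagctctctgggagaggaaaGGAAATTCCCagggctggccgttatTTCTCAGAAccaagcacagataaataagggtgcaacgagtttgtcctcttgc
Isg15, chr4:156200819-156201068, minus strand: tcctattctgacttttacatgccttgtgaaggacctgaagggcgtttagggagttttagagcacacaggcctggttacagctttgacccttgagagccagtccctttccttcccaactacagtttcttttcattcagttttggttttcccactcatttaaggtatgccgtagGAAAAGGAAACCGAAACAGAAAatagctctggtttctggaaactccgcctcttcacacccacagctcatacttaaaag
Irf1, chr11:53769764-53770013, plus strand: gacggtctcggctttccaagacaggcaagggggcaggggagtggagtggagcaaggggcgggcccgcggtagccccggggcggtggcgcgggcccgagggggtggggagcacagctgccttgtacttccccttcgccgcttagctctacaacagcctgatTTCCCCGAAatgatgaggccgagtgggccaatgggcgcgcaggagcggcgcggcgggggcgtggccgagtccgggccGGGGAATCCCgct
Nfkbia, chr12:55492648-55492897, minus strand: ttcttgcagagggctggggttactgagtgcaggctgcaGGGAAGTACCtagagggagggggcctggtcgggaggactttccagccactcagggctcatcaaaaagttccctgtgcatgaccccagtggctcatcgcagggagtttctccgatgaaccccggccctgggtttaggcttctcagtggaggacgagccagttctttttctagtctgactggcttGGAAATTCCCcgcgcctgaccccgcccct

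Counted back from the start, Cxcl10 held 1 ISRE match at position -213 and 2 κB matches at -159 and -103. Gbp2 held 1 ISRE match at -59. Gbp5 held matches to all 3 motifs, an ISRE at -165, a κB motif at -77 and GAS motifs at -245 and -52. In Isg15, 3 ISRE matches overlapped in 1 run that began at -78. Irf1 held a GAS match at -90 and a κB match at -13, and Nfkbia held κB matches at -212 and -29. The windows of Il1b, Il1a, Ifi47, Ccl12, Cmpk2 and Tnf, all of which were higher by 19.5-fold or more, held 0 matches to any of the 3 motifs. A match describes the letters and shows neither a binding site nor a cause of the level.

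The same motifs were counted in every window of this length. Of all 32851 RefSeq windows, 2.98% held an ISRE match, 17.6% a κB match and 7.02% a GAS match. For genes above the floor the shares were 2.87%, 21.9% and 6.07% of 7838 windows. Among the 468 windows of genes called higher the shares were 8.97% for ISRE, 24.6% for κB and 8.97% for GAS. Among the 83 windows of genes at least 8-fold higher they were 20.5%, 26.5% and 15.7%. Windows of genes called lower, 423 in number, held them in 2.60%, 23.2% and 5.67%. By list, 7 of the 8 windows of the interferon-γ GTPases called higher held an ISRE match, 5 a GAS match and 1 a κB match. For the NF-κB and MAPK feedback regulators called higher, 12 of 21 windows held a κB match. For the chemokines called higher 3 of 4 windows held a κB match, 1 an ISRE match and 0 a GAS match. For the NF-κB-driven cytokines called higher, 2 of 7 windows held a κB match and 0 an ISRE or GAS match. The antiviral genes called higher held an ISRE match in 7 of 18 windows, a κB match in 5 and a GAS match in 4. The windows of ribosomal protein genes, of which 0 were called, held each of the 3 motifs in 2 of 10. Not every gene had a window, and some had several. Of the 448 genes called higher, 354 had at least 1. By list this held for 7 of 9 interferon-γ GTPases, 17 of 19 feedback regulators and 4 of 8 chemokines. It held for 5 of 7 cytokines and 16 of 22 antiviral genes. These counts are descriptions of windows and were not tested.

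Genes were then grouped by role into lists, which do not hold every gene of a role. Among inflammatory cytokines driven by NF-κB, 7 of 12 genes above the floor were higher and 0 lower, with a median difference of 3.22. Beside Il1b and Il1a, Tnf had 7386, 5804, 6784, 6614 and 6680 in the 5 activated arrays, against 342 in non-activated cells (19.5-fold). Il6, a cytokine of the acute phase response, had 927, 554, 966, 1160 and 971 in activated cells, against 10.0, undetected, in non-activated cells (at least 19.3-fold). Il15, which sustains natural killer cells, was 33.8-fold higher, at 2864 to 4021 in activated cells against 97.2 in non-activated cells. Il1rn, the secreted antagonist of the interleukin-1 receptor, was 11.4-fold higher, at 6161 to 6677 against 564 in non-activated cells. Among the 5 not called, Csf1, the growth factor of macrophages, had 1062, 759, 1003, 861 and 761 in activated cells and 933 in non-activated cells. Il10, an anti-inflammatory cytokine, was detected on 3 of the 5 activated arrays only.

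Of the 12 listed chemokine genes above the floor, 8 were higher and 0 lower (median difference 2.67). The list did not hold every chemokine. Outside it, Ccl6 was called lower, with a log2 difference of -1.32, and Ccl8 was called higher, with 3.69. Ccl5, which attracts T cells and monocytes, had 9730, 6964, 7929, 10025 and 8625 in the 5 activated arrays, against 249 in non-activated cells (34.6-fold). Cxcl2, which recruits neutrophils, had 2221, 1124, 1260, 1783 and 1709 in activated cells, against 10.0, undetected, in non-activated cells (at least 34.2-fold). Ccl2 and Ccl7, monocyte attractants, were 8.27-fold and 4.88-fold higher in activated cells. Ccl3 and Ccl4 differed from these in that both were already bright without stimulation. Ccl3 had 16002, 15233, 16959, 15656 and 15926 in activated cells and 10612 in non-activated cells, a 1.50-fold difference that was not called. The highest value on the 6 arrays was 19352, so Ccl3 lay near the top of the scale. Whether this limits its fold was not tested. Ccl4 had 14582 to 15587 in activated cells and 3341 in non-activated cells on the brighter of its 2 probes (log2 difference 2.18), and the other probe gave 3.78.

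Feedback regulators of NF-κB and MAP kinase signalling were the list most fully called, with 19 of 20 genes higher and 0 lower (median difference 2.29). With all 11 activated arrays of the series in place of 5, 11 of them were called. Nfkbia, the inhibitor that holds NF-κB in the cytoplasm, had 3213, 2882, 3450, 3726 and 3992 in the 5 activated arrays, against 573 in non-activated cells (6.02-fold). Tnfaip3, the ubiquitin-editing enzyme A20, had 1649 to 2074 in activated cells, against 196 in non-activated cells (10.1-fold). Nfkbiz, a nuclear IκB protein, was 16.6-fold higher in activated cells, and Traf1, an adaptor of TNF receptors, at least 24.2-fold. Suppressors of cytokine signalling were also higher. Socs3 had 5551, 4290, 5372, 5099 and 5301 in activated cells, against 153 in non-activated cells (34.5-fold), Cish was 47.4-fold higher, and Socs1 at least 4.08-fold. Zfp36, which destabilises cytokine mRNAs, was 3.88-fold higher, at 5427 to 5721 in activated cells against 1436 in non-activated cells. Dusp1, the phosphatase of p38 and JNK, was 6.85-fold higher. Dusp2 was the gene not called, at 615 to 1203 in activated cells against 749 in non-activated cells.

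Of the same list, 3 genes encode NF-κB subunits. Rel was at least 5.82-fold, Nfkb2 4.35-fold and Relb 3.99-fold higher in activated cells.

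Immediate early genes moved in both directions, with 5 of 10 higher and 2 lower, Klf2 and Fos. With all 11 activated arrays 1 was called higher, and with quantile normalization without background correction 3 were. Atf3, a stress-induced repressor, had 2393, 2576, 3029, 2819 and 2934 in the 5 activated arrays, against 749 in non-activated cells (3.76-fold). Jund, Maff, Klf6 and Junb were the other 4 called higher. Fos, a subunit of AP-1, had 215, 89.7, 129, 103 and 79.4 in activated cells, against 972 in non-activated cells, 9.42-fold lower. Klf2, a factor that restrains macrophage activation, was at 26.3 to 41.4, undetected, on the 5 activated arrays, against 255 in non-activated cells (at least 4.37-fold lower). Jun was not called, at 128 to 156 in activated cells against 212 in non-activated cells.

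Inflammatory effector genes were higher for 14 of 21, with 0 lower (median difference 1.88). Nos2, the inducible nitric oxide synthase, had 1109, 806, 1282, 990 and 832 in the 5 activated arrays, against 28.1, undetected, in non-activated cells (at least 19.8-fold). Genes that supply it were higher too. Slc7a2, an arginine transporter, was 12.5-fold higher, and Gch1, which makes the cofactor tetrahydrobiopterin, 5.46-fold. Ptgs2, the inducible cyclooxygenase, was dim, at 136 to 231 in activated cells against 10.0, undetected, in non-activated cells (at least 3.68-fold). The adhesion molecules Icam1 and Vcam1 were 9.62-fold and at least 19.9-fold higher. Cd69, an early activation marker of leukocytes, had 2593, 1242, 1645, 1960 and 1856 in activated cells, against 10.0, undetected, in non-activated cells (at least 37.1-fold). Cd86, a costimulatory ligand, was 3.01-fold higher, whereas Cd80, the other such ligand, had 170, 28.6, 62.9, 62.0 and 67.3 in activated cells and 25.8 in non-activated cells and was not called. Lcn2, a siderophore-binding protein, missed the call through E14, at 249, 97.0, 177, 166 and 140 in activated cells against 10.0 in non-activated cells.

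Interferon-stimulated antiviral genes were higher for 22 of 26, with 0 lower (median difference 3.11). Ifit2, which binds viral RNA, had 4834, 4555, 4713, 4858 and 4675 in the 5 activated arrays, against 97.0 in non-activated cells (48.6-fold). Ifitm3, a membrane protein that blocks viral entry, was 37.8-fold higher, at 2269 to 3281 in activated cells against 64.9 in non-activated cells. Rsad2, the enzyme viperin, had 15228, 15589, 15418, 14868 and 16209 in activated cells, against 926 in non-activated cells (16.7-fold). The Mx1 and Mx2 GTPases were at least 11.8-fold and 11.9-fold higher. The cytoplasmic RNA sensors Ddx58 and Ifih1 were at least 6.13-fold and 2.60-fold higher. Usp18, which removes ISG15 from proteins, had a log2 difference of 3.81. The 4 not called were Oas3, Trim25, Zbp1 and Isg20, with median differences of 0.42 to 1.24.

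The interferon-γ GTPases had the highest median of the 24 lists, 4.56, with 9 of 11 higher and 0 lower. Beside Gbp2, Gbp3 and Gbp5, Igtp had 7829, 9660, 9351, 8723 and 8728 in the 5 activated arrays, against 178 in non-activated cells (48.9-fold). Irgm2 had a log2 difference of 4.59, and Gbp7 was at least 23.6-fold higher. Irgm1, a regulator of these GTPases, was not called on its brightest probe, at 13766 to 15211 in activated cells against 7463 in non-activated cells (log2 difference 0.92). Its other 2 probes gave 4.92 and 4.38 and were called. The value of Irgm1 thus depends on the probe.

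Among interferon signalling genes 9 of 17 were higher and 0 lower (median difference 1.24). Irf1, a transcription factor induced by interferons, had 15387, 14693, 13410, 14138 and 13089 in the 5 activated arrays, against 625 in non-activated cells (22.6-fold), and its 5 probes gave log2 differences of 3.84 to 6.11. Irf7 and Irf8 were at least 13.4-fold and 11.4-fold higher. Stat2 was at least 6.14-fold, Jak2 7.45-fold, Irf9 3.12-fold and Stat3 2.37-fold higher. Ifnb1, the gene of interferon-β, had 1071, 303, 711, 753 and 588 in activated cells, against 10.0, undetected, in non-activated cells (at least 14.2-fold). Of the receptor chains, Ifnar2 was 2.60-fold higher in activated cells. Ifngr1, the ligand-binding chain of the IFN-γ receptor, had 91.4, 115, 126, 110 and 126 in activated cells, against 247 in non-activated cells, a median 2.15-fold lower that missed the call through 2 arrays. Irf3, which carries the first interferon signal, had 488 to 563 in activated cells against 1086 in non-activated cells and was not called.

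Of 18 antigen presentation genes above the floor, 11 were higher and 0 lower (median difference 1.25). Tap1, the peptide transporter of class I presentation, had 986, 894, 893, 843 and 926 in the 5 activated arrays, against 19.7, undetected, in non-activated cells (at least 17.9-fold). Nlrc5, the transactivator of class I genes, was 6.98-fold and Tapbp, the chaperone tapasin, 4.82-fold higher. The immunoproteasome subunits Psmb9, Psmb8 and Psmb10 were 3.96-fold, 2.38-fold and 2.33-fold higher. H2-K1 and H2-D1, class I heavy chains, were 2.39-fold and 2.62-fold higher. These heavy chains have close relatives, and probes of near-identical genes may share signal. B2m, the light chain, was bright in both states, at 13253 to 15706 in activated cells and 15848 in non-activated cells. Of 4 class II genes above the floor, 0 were called. Cd74, the invariant chain, had 3129 to 3620 in activated cells against 2434 in non-activated cells. Ciita, the class II transactivator, was detected on 2 of the 5 activated arrays.

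Of 20 genes of LPS sensing itself, 2 were higher and 1 lower (median difference 0.48). Map3k8, a kinase that links TLRs to ERK, had 560, 328, 348, 423 and 411 in the 5 activated arrays, against 64.9 in non-activated cells (6.32-fold). Ikbke, a kinase of interferon regulatory factors, was 2.68-fold higher. Tlr4, the LPS receptor, had 76.3, 80.8, 37.3, 52.8 and 53.5 in activated cells, against 232 in non-activated cells. The log2 difference was -2.11. It was detected on 2 of the 5 activated arrays, and its call was lost when quantile normalization without background correction was used or when its 2 probes were averaged. Cd14 and Ly96, the co-receptors, were not called, with median differences of 0.89 and 0.91. Cd14 had 3304 to 3975 in activated cells against 1931 in non-activated cells. Myd88 had 6235 to 6583 in activated cells against 3618 in non-activated cells; its 5 activated values spanned 0.08 on the log2 scale.

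**Figure D3:**
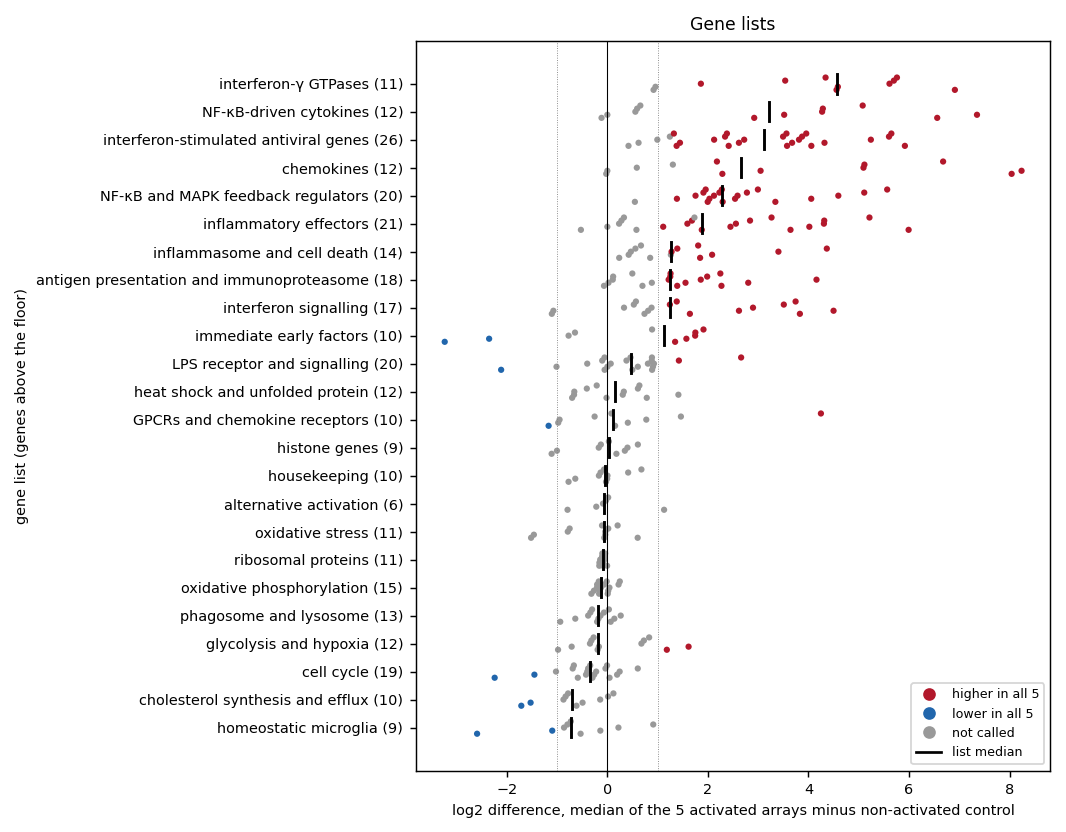
Median of the 5 activated arrays minus the non-activated control, on the log2 scale, for each gene above the floor in 24 lists, with the number of genes in brackets. Points are genes coloured by call, black bars are list medians and dotted lines mark 2-fold. Interferon, cytokine, chemokine and feedback lists lie to the right, while ribosomal, housekeeping and respiratory chain genes lie around 0.

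Listed cell death and inflammasome genes were higher for 7 of 14, with 0 lower (median difference 1.27). Outside the list, Casp9 was called lower, with a log2 difference of -2.12, and Apaf1 was called higher, with 1.65. Fas, a death receptor, had 1076, 906, 1031, 1126 and 924 in the 5 activated arrays, against 33.6, undetected, in non-activated cells (at least 20.6-fold). Casp4, the sensor of intracellular LPS in mice, was 10.6-fold higher, at 3681 to 4169 in activated cells against 369 in non-activated cells. Mlkl, the executioner of necroptosis, was 4.24-fold and Il18 3.59-fold higher. Casp1 and Gsdmd, which carry out pyroptosis downstream, were not called, with median differences of 0.56 and 0.47. Nlrp3 was dim, at 75.3 to 118 in activated cells against 14.5, undetected, in non-activated cells, and was not called.

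The falls were smaller than the rises, within the limit set by the floor. Gpr183, the receptor for oxysterols that guides immune cells, was undetected on all 5 activated arrays, with values of 10.0 to 33.3, against 1351 in non-activated cells (at least 23.1-fold lower). Dusp6, the cytoplasmic phosphatase of ERK, was undetected on the 5 activated arrays at 20.5 to 30.9, against 631 in non-activated cells (at least 10.8-fold lower). Lyl1, a helix-loop-helix factor of blood cells, was undetected at 10.0 to 28.8 in activated cells, against 625 in non-activated cells (at least 10.7-fold lower). For these 3 genes every activated array lay below the non-activated level, which the call requires.

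Klhl6, a ubiquitin ligase adaptor, had 289, 220, 205, 245 and 219 in the 5 activated arrays, against 2251 in non-activated cells (10.2-fold lower). Sash3, an adaptor of lymphocytes, had 97.7, 94.5, 89.9, 115 and 105 in activated cells, against 957 in non-activated cells (9.79-fold lower). Sla, an adaptor that dampens receptor signals, was undetected on all 5 activated arrays, against 493 in non-activated cells (at least 8.43-fold lower). Arl11, a small GTPase, had 133, 151, 156, 141 and 97.3 in activated cells, against 1637 in non-activated cells (11.6-fold lower). Abi3, an actin regulator, had 81.7, 29.5, 40.6, 66.6 and 47.1 in activated cells against 571 in non-activated cells and was detected on 1 activated array.

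Sesn1, a stress-induced inhibitor of mTORC1, had 123, 111, 106, 94.1 and 96.6 in the 5 activated arrays, against 1091 in non-activated cells (10.3-fold lower). Rab7b, a lysosomal GTPase that promotes TLR4 degradation, had 91.1, 122, 95.6, 107 and 116 in activated cells, against 978 in non-activated cells (9.15-fold lower). Angpt2, a ligand of the TIE2 receptor, was 8.81-fold lower, at 98.1 to 113 in activated cells against 940 in non-activated cells. Lhfpl2, a membrane protein, was 8.84-fold lower. Plxdc1, a plexin domain protein, and Fam78a were each detected on 3 of the 5 activated arrays, at 47.8 to 89.1 and 44.5 to 76.3, against 832 and 713 in non-activated cells. With Fos these are the 15 largest falls.

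Of 9 homeostatic microglia genes above the floor, 2 were lower and 0 higher. Their median difference was -0.73, but it was -0.18 with quantile normalization without background correction, -0.14 with a floor of 100 and -0.46 with neqc background correction. Mef2c, a transcription factor of resting microglia, had 299, 252, 236, 246 and 281 in the 5 activated arrays, against 1520 in non-activated cells (6.03-fold lower). Tgfbr2, a receptor for TGF-β, had 275, 249, 258, 252 and 272 in activated cells, against 552 in non-activated cells (2.14-fold lower). The call of Tgfbr2 lay just past the 2-fold limit, and 1 of the 2 calls of the list was lost with quantile normalization without background correction, with arrays rescaled to a common median, with all 11 activated arrays or with probes averaged. Trem2, a lipid receptor, had 1974 to 2305 in activated cells against 3551 in non-activated cells and was not called. Of 7 markers of homeostatic microglia in the brain with a probe, P2ry12, Tmem119, Siglech, Gpr34 and Olfml3 were not above the floor on any of the 6 arrays. The other 2, Cx3cr1 and Sall1, were above it and not called, with median differences of -0.53 and 0.22. All 12 general microglia and macrophage markers with a probe were above the floor and 0 were called. Markers of astrocytes (6), neurons (6), oligodendrocytes (5), fibroblasts and endothelium (6) and T and B cells (5) were not above the floor.

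Listed cell cycle genes were lower for 2 of 19 and higher for 0 (median difference -0.34). Outside the list, Cdkn1a, Cdkn2b, Cdk6 and Ccng2 were called higher, with log2 differences of 1.77, 1.99, 1.35 and 3.33. Cdca7, also outside it, was called lower, with -1.65. E2f2, an S phase factor, had 114, 86.3, 86.6, 76.2 and 60.3 in the 5 activated arrays, against 408 in non-activated cells (4.73-fold lower). E2f1 had 189, 240, 203, 184 and 190 in activated cells, against 520 in non-activated cells (2.73-fold lower). The mitotic genes Top2a, Cdk1, Aurka, Plk1, Kif11 and Cdc20 were not called, with differences of 0.61, 0.24, 0.19, -0.26, -0.34 and -0.42. Of 10 cholesterol genes, 2 were lower, Dhcr7, the last enzyme of synthesis, and Nr1h3, the oxysterol receptor LXRα. Nr1h3 had 145, 99.1, 102, 98.7 and 98.6 in activated cells, against 325 in non-activated cells (3.28-fold lower). Hmgcs1, an early enzyme of synthesis, had 5345 to 6092 in activated cells against 10493 in non-activated cells, just inside 2-fold, and the list's median was -0.70. Fewer of these lower calls held under some alternatives, down to 0 for the cholesterol genes and 1 for the cell cycle genes.

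Of 12 genes of glycolysis and hypoxia, 2 were higher and 0 lower. Hk2, the inducible hexokinase, had 5386, 5216, 5762, 5387 and 5391 in the 5 activated arrays, against 1758 in non-activated cells (3.06-fold). Hif1a, the hypoxia-inducible factor, was 2.27-fold higher, at 428 to 630 in activated cells against 203 in non-activated cells. With all 11 activated arrays 0 of the 12 were called. Hk1 and Pfkp were not called, with median differences of 0.83 and 0.73. Ldha, Pkm and Gapdh were lower by less than 2-fold, with differences of -0.32, -0.35 and -0.17. Respiratory chain genes (15), ribosomal protein genes (11), housekeeping genes (10), lysosomal genes (13), histone genes (9), genes of oxidative stress (11), of protein folding stress (12), and of alternative activation (6) had 0 called in either direction. Arg1, a marker of alternative activation, had 702 to 820 in activated cells against 1368 in non-activated cells. Hmox1, the haem oxygenase, had 1321, 3607, 1223, 1736 and 2146 in activated cells against 4969 in non-activated cells and missed the call through E14. Among receptors of chemokines and nucleotides, Ccrl2, a chemerin-binding receptor, had a log2 difference of 4.25 and was called higher. Cxcr4, the CXCL12 receptor, was called lower, undetected on the 5 activated arrays at 10.0 to 17.6 against 112 in non-activated cells.

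The 5 activated arrays were then compared among themselves, as a description of arrays chosen to be alike. Over probes above the floor, 108 of 10169 (1.06%) spanned at least 2-fold among them. Without the activated control 30 did, and without E14 68 did. The activated control was at least 2-fold above the median of the other 4 arrays for 22 probes (0.216%) and as far below it for 6 (0.059%). Among the 665 probes called higher, the activated control was the highest of the 5 for 282 (42.4%) and E14 was the lowest for 222 (33.4%). Among the 427 called lower, the activated control was the highest for 84 (19.7%) and the lowest for 91 (21.3%). E14 was the highest there for 109 (25.5%). These shares were not counted over all probes, so they are not set against a background. The median span of the probes called higher was 0.34, against a median difference of 1.94 from non-activated cells.

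The widest span was that of Cd207, the lectin langerin. It had 325, 588, 715 and 620 in E14, E18, E21 and E23, against 138 in the activated control, and it was undetected in non-activated cells. All 4 compound arrays were higher than the activated control, and a further Cd207 probe gave the same order of arrays except that E18 and E23 changed places. Il10 had 43.4, 78.8, 189 and 152 in E14, E18, E21 and E23, against 37.4 in the activated control. Il27, a cytokine that directs T cells, had 178, 411, 379 and 322 in E14, E18, E21 and E23, against 659 in the activated control. Ifnb1 had 303 in E14 and 588 to 753 in E18, E21 and E23, against 1071 in the activated control. Gpr85, an orphan receptor, had 102 in E14 and 173 to 193 in the other 3 compound arrays, against 365 in the activated control. For Il27, Ifnb1 and Gpr85 all 4 compound arrays were lower than the activated control, with E14 the lowest.

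Evl, an actin polymerisation factor, had 130, 119, 141 and 102 in E14, E18, E21 and E23, against 358 in the activated control and 160 in non-activated cells. Nectin2, an adhesion molecule, had 209, 289, 239 and 214 in E14, E18, E21 and E23, against 619 in the activated control and 111 in non-activated cells. For Evl the 4 compound arrays lay below non-activated cells, and for Nectin2 they lay between non-activated cells and the activated control. Another Nectin2 probe was called higher, with a log2 difference of 1.18. A difference between the activated control and the 4 compound arrays cannot be told apart from a deviation of 1 array.

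By list, E14 departed most often from the activated control among the compound arrays of the group. Its median difference from the activated control was -0.39 for cytokines, -0.45 for chemokines, -0.33 for feedback regulators and -0.46 for effectors. For the antiviral genes it was 0.04 and for the interferon-γ GTPases -0.15. In E18, E21 and E23 the medians for cytokines, chemokines and feedback regulators were between -0.18 and -0.02. Effector genes were lower in these arrays also, with medians of -0.30 in E18, -0.21 in E21 and -0.44 in E23. For oxidative stress genes E14 had a median of 0.35, against 0.00, 0.07 and 0.09 in E18, E21 and E23. Its Gclm, a subunit of the glutathione-synthesising ligase, was 3691 in E14, 2246 in E18, 2267 in E21 and 2297 in E23, against 1836 in the activated control and 2365 in non-activated cells. The medians of E14 were not particular to it. Outside the group, E5 and E19 had -0.54 and -0.46 for cytokines and -0.47 and -0.48 for chemokines. For oxidative stress genes they had 0.52 and 0.48. In E4 and E33 the medians for cytokines and chemokines were between -0.06 and -0.02. All of these are values of single arrays.

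**Figure D4:**
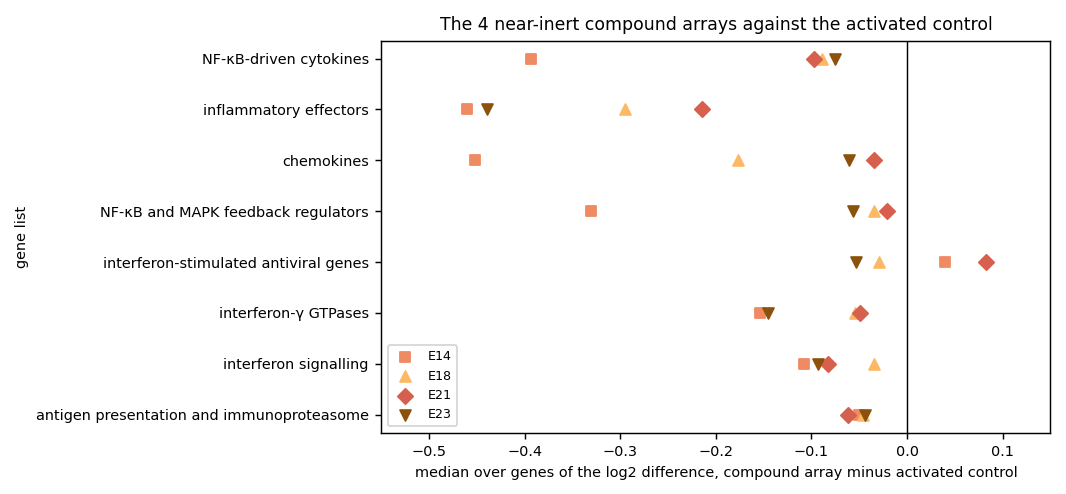
Median over the genes of 8 lists of the log2 difference between each of the 4 compound arrays and the activated control. E14 lies at -0.33 to -0.46 for cytokines, effectors, chemokines and feedback regulators and near 0 for antiviral genes.

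The 6 activated arrays outside the group were read against the same non-activated control, so their differences share it. Their own counts of probes at least 2-fold higher than in non-activated cells were 843 for E4, 860 for E5, 826 for E19, 864 for E20, 857 for E29 and 752 for E33. The counts of the 5 arrays described above, 924 for the activated control and 808 to 855 for the compounds, lay close to them. Similar totals did not mean the same probes. Of the 665 probes called higher, 587 to 644 were at least 2-fold higher in E4, E5, E19, E20 and E33. In E29 363 were, and 12 were at least 2-fold lower. Lower probes numbered 516 in E33 and 1116 in E29, against 633 to 759 in the 5 arrays. Cxcl10 had 15883, 12956, 10844, 15008 and 15294 in E4, E5, E19, E20 and E33 and 1524 in E29. Gbp2 had 13331 to 16985 in all 6. Batf2 had 198 in E29 and 2702 to 6234 in the others, and Fos had 55.1 in E20 and 390 in E29. Gpr183 was at 10.0 to 46.9 in all 6, against 1351 in non-activated cells. For Cxcl10 and Batf2, E29 was the lowest of the 11 activated arrays.

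**Figure D5:**
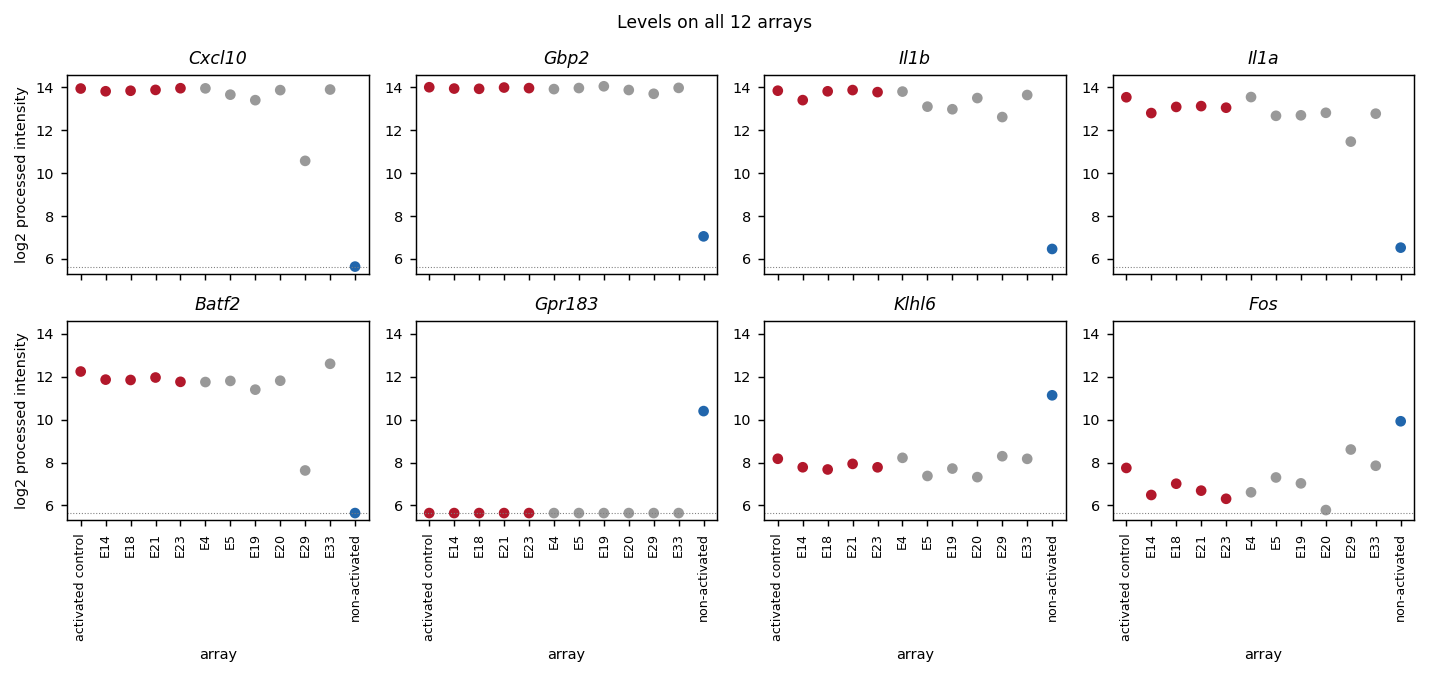
Log2 processed intensity of 8 of the genes on all 12 arrays, with the 5 arrays of the group in red, the other 6 activated arrays in grey and the non-activated control in blue. The dotted line is the floor of 50. E29 lies below the other activated arrays for Cxcl10, Batf2, Il1b, Il1a and, by a small margin, Gbp2. It lies above them for Klhl6 and Fos, and Gpr183 is at the floor on all 11.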

How the data were processed

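Total RNA of BV2 cells was hybridised to single-colour Illumina bead arrays, 1 array per condition. The submitters' processing notes name GenomeStudio 2010.3. The authors deposited processed intensities for 25697 probes, on a linear scale with a lowest value of 10; their background and normalization steps are not stated. They also deposited scanner intensities and a detection p-value per probe, per the file headers, and a probe counted as detected at a p-value under 0.01.

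Processed values under 50 were raised to 50, log2 was taken, and the non-activated control was subtracted from the activated control and from E14, E18, E21 and E23 in turn. A probe was called where all 5 differences were at least 1 in the same direction. Where the dimmer side was undetected on every array, the fold is a bound, taken against the higher of 50 and each array's lowest detected value. Genes came from the platform annotation, which gave 1 symbol for 23978 probes and none for 1719. Symbols were updated through gene IDs for 23962. The probe with the highest mean over the 6 arrays stood for a gene. Members and lists were chosen with earlier results of these data known. The text names the 15 largest rises and falls, the 6 widest spans and the 6 largest departures of the activated control. Of each list it names some or all of the 4 largest differences, and uncalled members central to the list. Further list members are given as examples, chosen after their values were seen.

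Differences between activated and non-activated cells are given without p-values. The number of arrays limits the precision. Promoters came from RefSeq (GRCm38.p6). Alternatives used neqc and limma 3.58.1 in R 4.3.3. Counting was tested on simulated data and done with pandas 2.3.3 and numpy 2.4.6 under Python 3.11.15, and figures with matplotlib 3.10.9.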

Additional observations from a re-analysis of the deposited data

Results flagged for a closer look

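Among 129 values, 15 had 1 of the 5 activated arrays standing apart by Dixon's criterion, in which the gap to the nearest array exceeds 0.71 of the range of the 5. The 5 arrays were different conditions chosen to be alike and were not replicates. No chance rate applies to them, and the criterion serves only to list values. Some of these genes were named for their wide span or for the departure of the activated control, which favours a flag. The array apart was the activated control for 8, E14, E18 and E21 for 2 each, and E23 for 1. Each value below is that array's log2 difference from the non-activated control.

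Il1b was lowest in E14, at 6.94, with 10859 against 14064 to 15029 in the other 4 arrays. Ifi47 was lowest in E23, at 6.61. Cmpk2 was lowest in the activated control, at 5.44. Nr1h3, one of the genes lower in activated cells, was highest in the activated control, at -1.17, with 145 against 98.6 to 102 in the other 4. Mertk, a receptor for apoptotic cells, was highest in the activated control, at 1.77, with 533 against 271 to 295. Evl, Col4a2 and Cd80 were highest there also, at 1.17, 1.67 and 1.77, and C5ar1 at -0.85. Tfrc, the transferrin receptor, was lowest in the activated control, at -1.06. Gclc was highest in E14, at -0.71, with 84.0 against 38.8 to 44.0. Mcm2 and Xbp1 were lowest in E21, at -1.25 and -0.87. Cx3cr1 was highest in E18, at -0.43, and Rpl10 lowest there, at -0.25. For Gclc and Cx3cr1 the other 4 arrays were all under the floor of 50 and so tied, which makes the criterion uninformative for them. C5ar1 and Col4a2 also had values close to the floor on several of these arrays.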

How the results depend on the processing

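All 5 activated arrays were compared with 1 non-activated array, so its own deviation enters every difference. The counts of higher and lower probes, 665 and 427, became 438 and 191 with quantile normalization without background correction, 324 and 201 with all 11 activated arrays, and 257 and 67 at a 4-fold limit, while a 1.5-fold limit gave 1081 and 1241. Lower probes numbered 747 with a floor of 10, 754 with the activated control alone and 703 when the median of the 5 was used. Leaving out 1 array gave 673 to 690 higher and 438 to 467 lower probes. Background correction with neqc gave 681 and 415. The 108 probes spanning 2-fold among the 5 arrays became 3082 with a floor of 10, 55 with a floor of 100, 29 with quantile normalization without background correction, and 30 to 96 on leaving out 1 array (30 without the activated control).

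Of 119 named differences, 114 kept 1 sign under all alternatives run, and those of Trib3, C5ar1, Cx3cr1, Stab1 and Sall1, which were not called, reached 0 or just passed it. Values under the floor of 50 were not ranked, so changes of dim genes are limited by it. Across alternatives the log2 difference ranged from 7.06 to 9.03 for Cxcl10, from 2.82 to 5.14 for Nos2, from -6.08 to -3.22 for Gpr183 and from -4.75 to -2.12 for Dusp6. The cause of these shifts was not tested. No paired analysis was possible because the labels carry no replicate numbers and there was 1 array per condition.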

Other observations

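Some genes that were not called differed near or past 2-fold on part of the 5 arrays. Ccl24, a chemokine for eosinophils, had 1694, 694, 910, 969 and 949 in the activated control and in E14, E18, E21 and E23, against 434 in non-activated cells, and the median difference was 1.13. Chac1, a glutathione-degrading enzyme of the unfolded protein response, had 74.1 in the activated control and 119 to 198 in the 4 compound arrays, against 54.9 in non-activated cells. Its log2 difference from non-activated cells had a median of 1.41 over the 5 arrays. The compound arrays were all above the activated control for Chac1. H1f2 and H2ac7, histone genes, had 1563 to 1938 and 1599 to 1962 in activated cells, against 3536 and 3800 in non-activated cells. Vegfa, a growth factor induced by hypoxia, had 198, 171, 183 and 156 in E14, E18, E21 and E23, against 88.3 in the activated control and 338 in non-activated cells. Of the probes called higher, 31 had no gene here, and of those called lower 20 had none.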
